A study of Mus musculus with 12 samples.

Results

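The ADAM sheddases and their iRhom partners were followed as 8 genes taken by name: Adam9, Adam10, Adam12, Adam15, Adam17 and Adam19, which encode membrane-anchored metalloproteases, and Rhbdf1 and Rhbdf2, which encode iRhom1 and iRhom2. All 8 were among the 48321 genes of the table and all 8 were among the 11998 genes abundant enough to be tested. The cells were brown preadipocytes from the interscapular depot of a newborn wild-type C57BL/6J mouse. They were immortalized with the SV40 large T antigen, transduced with a lentivirus and selected with puromycin. One line carried the empty pLEX vector and the other carried tSema4B, a truncated and soluble form of mouse Sema4B, with 1 line per construct, so that a difference between the lines cannot be told apart from a difference between these particular transductions. Both lines had 8 days of differentiation and were then left unstimulated or given 2 µM norepinephrine (NE) for 6 h in serum-free medium. This gave 4 groups of 3 libraries: vector, vector with NE, tSema4B and tSema4B with NE. By the labels the libraries within a group are technical replicates, and p-values therefore measure only the spread between these samples.

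ADAM proteases cut the extracellular part of membrane proteins and release it, a step known as ectodomain shedding. ADAM17 releases TNF and several ligands of the EGF receptor, and ADAM10 cuts Notch, cadherins and other receptors. The iRhoms are rhomboid-like proteins that have lost protease activity. They carry newly made ADAM17 out of the endoplasmic reticulum and stay with it at the cell surface, where FRMD8 stabilizes the complex. In adipose tissue, shedding bears on signals that control differentiation, such as DLK1. The study was about ADAM17 in adipocytes, with SEMA4B as a protein shed by it. It used NE to ask whether beta-adrenoceptors, which control thermogenesis, can activate shedding by ADAM17. The paper also reported that Adam17 mRNA rose with NE in primary inguinal adipocytes and with acute cold in brown fat. Those are other cells and tissue than the lines described here. mRNA levels say nothing of protein maturation or of protease activity, which were not analysed here.

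Libraries held between 2000780 and 5409583 reads on genes, and in each condition all vector libraries exceeded all tSema4B libraries in depth. Vector libraries with NE (4739777 to 5409583 reads) were also all deeper than unstimulated ones (2841941 to 3682634). In tSema4B the depths with and without NE overlapped. Sema4b took 2.04 to 4.02% of the reads in the vector libraries and 7.01 to 10.2% in the tSema4B libraries. In the latter, reads of the resident gene and of the transgene cannot be told apart. Even in the empty-vector libraries this was a large share for a single gene, and its origin was not tested. The differentiation state differed between the lines as well. The summed normalized count of 8 adipocyte markers was 33269 to 37077 in unstimulated vector cells and 5434 to 7998 in unstimulated tSema4B cells, and with NE it was 46690 to 59290 and 9554 to 10928. That of 10 preadipocyte and fibroblast markers was 9286 to 9999.5 and 18080 to 20908 without NE, and 8328 to 9722 and 18489 to 20009.9 with NE. All 8 adipocyte markers were lower in tSema4B cells in both conditions, and 6 and 7 of the 10 preadipocyte markers were higher. Ucp1, the uncoupling protein that defines brown adipocytes, had no read in any unstimulated tSema4B library and 46 to 65 reads per library with NE, against 11 to 14 and 409 to 452 reads in vector cells. Of 7 brown adipocyte markers, Ucp1 among them, 5 were tested, and 3 were lower in tSema4B in each condition. With NE, only Ucp1 of these was higher in vector and 2 were higher in tSema4B, and none was lower. Mitochondrially encoded genes took 13.4 to 16.7% of the reads in vector and 6.91 to 7.89% in tSema4B libraries. The part of these differences in the results between lines was not tested. In RNA from whole cultures, fewer cells of a type and less RNA per cell cannot be told apart.

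Reads were counted over exons of genes that GENCODE places, in build GRCm38, at chr8:24949611-25016927 (Adam9), chr9:70678997-70780229 (Adam10), chr7:133883199-134232146 (Adam12), chr3:89338542-89349996 (Adam15), chr12:21323509-21373632 (Adam17), chr11:46055992-46147343 (Adam19), chr11:32209585-32222300 (Rhbdf1) and chr11:116598165-116627019 (Rhbdf2). All are protein-coding, with Adam10 and Adam19 on the plus strand and the others on the minus strand.

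Upstream sequences were available for 4 of the 8 members, Adam10, Adam15, Adam17 and Adam19, in 6 windows. The 250 bases before the annotated start are shown for Adam10 and Adam19, which differed in opposite directions with NE, and for Adam17, for comparison (RefSeq, build GRCm38.p6, coding strand, 5′ to 3′). Capitals mark matches, on either strand, to TGACG, the half-site bound by the cAMP response factor CREB, and to GGGCGG, the GC box. The Adam10 window lies at chr9:70678732-70678981 on the plus strand, the Adam17 window at chr12:21373633-21373882 on the minus strand and the Adam19 window, 1 of 3 for that gene, at chr11:46055734-46055983 on the plus strand.
Adam10: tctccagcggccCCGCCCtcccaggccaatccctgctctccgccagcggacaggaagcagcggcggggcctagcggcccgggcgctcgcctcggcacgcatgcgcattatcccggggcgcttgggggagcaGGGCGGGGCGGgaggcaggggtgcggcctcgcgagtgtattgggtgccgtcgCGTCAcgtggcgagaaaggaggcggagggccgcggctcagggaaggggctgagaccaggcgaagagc
Adam17: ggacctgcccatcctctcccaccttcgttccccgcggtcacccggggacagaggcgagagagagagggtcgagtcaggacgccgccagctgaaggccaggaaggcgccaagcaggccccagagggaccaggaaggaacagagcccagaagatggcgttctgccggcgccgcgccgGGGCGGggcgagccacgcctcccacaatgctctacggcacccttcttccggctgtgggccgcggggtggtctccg
Adam19: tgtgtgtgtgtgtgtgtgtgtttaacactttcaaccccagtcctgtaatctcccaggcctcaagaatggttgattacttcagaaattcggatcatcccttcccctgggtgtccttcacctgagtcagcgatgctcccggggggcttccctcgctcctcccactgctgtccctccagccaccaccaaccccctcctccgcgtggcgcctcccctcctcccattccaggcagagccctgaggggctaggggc
The Adam10 window held 1 CREB half-site, whose first base lies 67 bases before the start, and 3 GC boxes, a pair of which overlap. The Adam17 window held 1 GC box, 75 bases before the start, and none of the 3 Adam19 windows held either motif. The Adam15 window, which is not shown, held 1 GC box, 16 bases before the start, and no half-site. The full CREB site TGACGTCA, which contains the half-site, was in none of the 6 windows. Over all 32851 windows of this length, 17.8% held the half-site, 1.55% the full site and 32.7% a GC box. These are letter matches, and binding was not measured.

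The members spanned more than an order of magnitude in level. Per kb of exon, Adam9 was the most abundant in every group, with a normalized count of 192 ± 14.3 per kb in vector, 244 ± 41.7 in tSema4B, 240.4 ± 8.49 in vector with NE and 304 ± 27.2 in tSema4B with NE (SD, n = 3). Adam10 followed with 107 ± 13.0, 130.4 ± 11.5, 88.4 ± 11.3 and 95.3 ± 15.1 per kb in the same order of groups. Adam17 stood at 86.8 ± 11.5, 87.0 ± 11.0, 78.7 ± 1.58 and 81.4 ± 8.50 per kb, and its libraries overlapped those of Adam10 in every group except unstimulated tSema4B. Dividing by the longest annotated transcript instead of all exons placed Adam17 above Adam10 in 3 of the 4 groups, so that the order of these 2 genes depends on the length used.

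Adam15 had rank 4 in each group with means between 26.8 and 38.0 per kb. Adam12, Adam19 and Rhbdf1 had means between 6.75 and 18.1 per kb and changed places between groups. Neighbours among these 3 overlapped in both unstimulated groups, while with NE Adam19 stood above the other 2 without overlap. On the longest annotated transcript, Adam19 (14.9 to 17.5 per kb) overlapped Adam12 (9.90 to 18.03) in vector with NE, and the 2 did not overlap in unstimulated vector cells, so this order also depends on the length used. Rhbdf2 was the lowest member in every group, at 3.69 to 5.31 per kb, resting on 12 to 40 reads per library. Within a library, the log2 ratio of Rhbdf2 to Rhbdf1 per kb averaged -0.71 ± 0.65 in vector, -1.23 ± 0.40 in tSema4B, -0.92 ± 0.37 in vector with NE and -1.18 ± 0.83 in tSema4B with NE (SD, n = 3). In 11 of the 12 libraries Rhbdf1 was the more abundant iRhom, and in the third unstimulated vector library the ratio was 0.04.

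**Figure D1:**
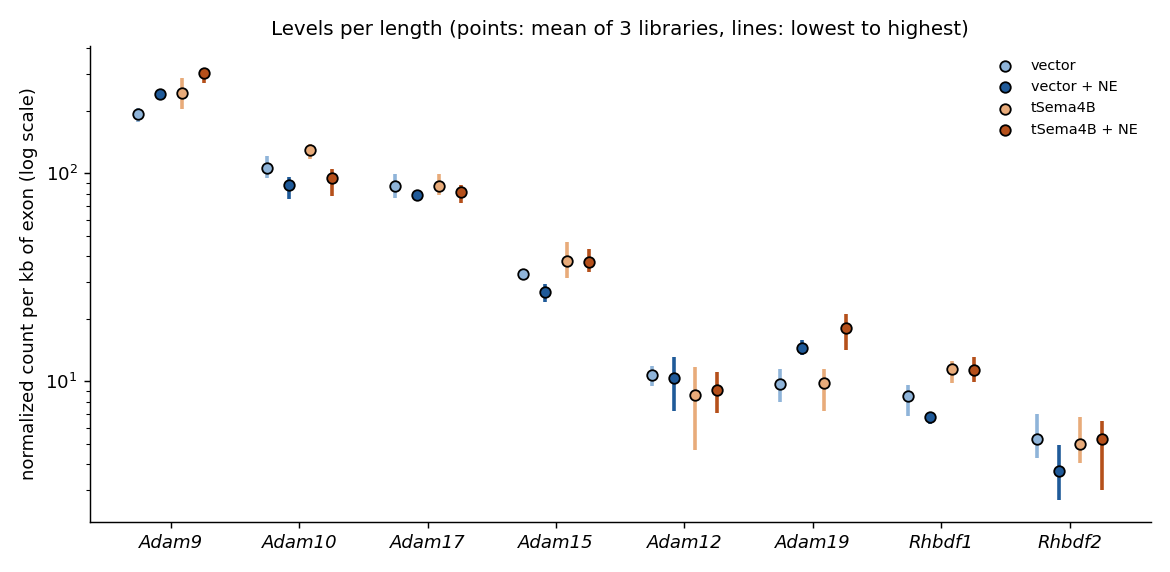
Normalized counts per kb of exon, on a log scale, for the 8 members in the 4 groups, with the mean of 3 libraries as a point and the lowest to highest library as a line. Adam9 sits above all other members and Rhbdf2 has the lowest mean in every group.

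Adam17, the sheddase of TNF, was at a similar level in all groups. Its normalized counts were 547, 709.6 and 606 in the vector libraries, 595, 712 and 561 in tSema4B, 565, 551 and 573 in vector with NE, and 515, 632 and 599.9 in tSema4B with NE. The 4 groups overlapped throughout. The fitted log2 difference between tSema4B and vector was 0.00 without NE (95% interval -0.24 to 0.24) and 0.04 with NE (-0.20 to 0.28). The difference between NE and unstimulated cells was -0.13 in vector (-0.37 to 0.11) and -0.09 in tSema4B (-0.33 to 0.15). No comparison passed the test, and the intervals leave room for differences of up to 0.37 on the log2 scale. Of the exon bases of Adam17, 311 lie over exons of Iah1 on the opposite strand. The strand setting of the counting is not given in the sources used here, so reads from these bases cannot be assigned to one gene.

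**Figure D2:**
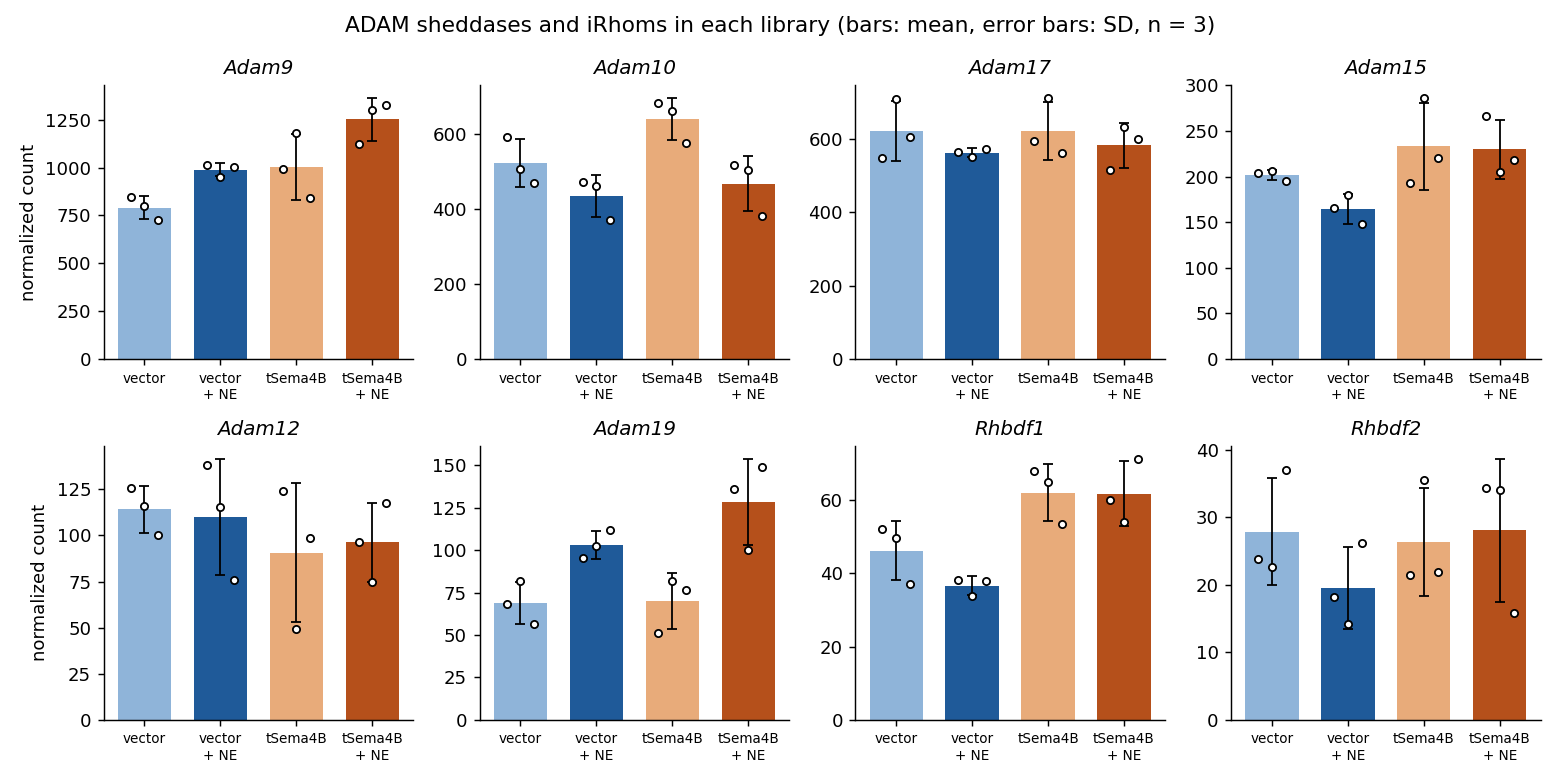
Normalized counts of the 8 members in each of the 12 libraries (points), with the mean and SD of each group of 3 as bars and error bars. The Adam17 groups overlap, while the libraries with NE lie above the unstimulated ones of the same line for Adam19.

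The comparison of unstimulated tSema4B with unstimulated vector cells asked how the soluble semaphorin line differed at rest. Among the members, 1 of 8 was higher and none was lower, where 5.64% of all tested genes were higher and 7.39% lower. It was Adam9, a widely expressed sheddase. Its normalized counts were 846, 798 and 729 in vector and 993, 1182 and 839 in tSema4B. The lowest tSema4B library fell below the highest vector library. The log2 difference was 0.33 ± 0.11 (SE), with an adjusted p = 0.0431 by limma. Adam9 passed in 1 of 6 fits that each left out a library, the one without tSema4B replicate 3. Over these fits the adjusted p ranged from 0.00617 to 0.229 and the log2 difference from 0.21 to 0.46. The call was also lost with no filter on low values, when rescaled over nuclear genes, with thinned reads and with only the 6 libraries compared, so that 9 of 18 alternative fits passed.

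Rhbdf1 did not pass at rest although its libraries did not overlap. It was the 1 member of 8 without overlap, where 29.4% of all tested genes had none. Its normalized counts were 52.1, 49.6 and 37.0 in vector and 67.9, 65.0 and 53.4 in tSema4B, a log2 difference of 0.42 (adjusted p = 0.311 by limma). Adam10 had a log2 difference of 0.29 (adjusted p = 0.154) and Adam12, a protease known from muscle and from adipogenesis, one of -0.42 (adjusted p = 0.371). Adam12 varied more within tSema4B, at 124, 49.5 and 98.6, than between the lines. The remaining members had differences between -0.08 and 0.19 in log2. The median over the 8 members was 0.10, beside 0.00 over all tested genes.

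After NE, tSema4B cells had higher levels than vector cells for 3 of 8 members and lower levels for none, where 9.79% of tested genes were higher and 11.2% lower. Adam9 stood at 1013, 949 and 1006 in vector and at 1124, 1303 and 1329 in tSema4B, with no overlap (log2 difference 0.34 ± 0.11 SE, adjusted p = 0.0290 by limma). Adam15 stood at 165, 180.2 and 148 in vector and at 266, 205 and 218 in tSema4B, again without overlap (0.48 ± 0.16 SE, adjusted p = 0.0345). Rhbdf1, the iRhom found in most tissues, stood at 38.3, 33.8 and 38.0 in vector and at 60.1, 54.0 and 71.4 in tSema4B. All 3 tSema4B libraries exceeded all 3 vector libraries for each of these 3 genes of 8, where 37.7% of all tested genes had groups without overlap, so that this share is near the background and is no result about the members. The log2 difference of Rhbdf1 was 0.73 ± 0.25 (SE) with an adjusted p = 0.0441 by limma.

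These calls lay close to the threshold. In fits that each left out 1 library, Adam9 passed only without tSema4B NE replicate 1, Rhbdf1 only without tSema4B NE replicate 2, and Adam15 without vector NE replicate 2 or tSema4B NE replicate 2. The log2 differences stayed between 0.29 and 0.41 for Adam9, 0.37 and 0.55 for Adam15 and 0.62 and 0.82 for Rhbdf1 in these leave-one-out fits. With no filter on low values or when rescaled over nuclear genes, none of the 3 passed. With quantile normalization, thinned reads, a replicate block or only the 6 libraries compared, the count was 2 and Rhbdf1 was the call lost. Over all 18 alternative fits Adam9 passed in 11, Adam15 in 12 and Rhbdf1 in 7. Rhbdf2, the iRhom best known from immune cells, was at 18.1, 14.2 and 26.2 in vector with NE and at 34.3, 34.1 and 15.9 in tSema4B with NE. Its groups overlapped and the log2 difference of 0.47 had a 95% interval from -0.36 to 1.29. Adam19 had a difference of 0.30 (adjusted p = 0.388 by limma), Adam10 of 0.10, Adam17 of 0.04 and Adam12 of -0.17. The median over the members was 0.32 beside -0.01 over all tested genes. Of the exon bases of Adam15, 1263 lie over exons of 4731419I09Rik on the opposite strand.

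**Figure D3:**
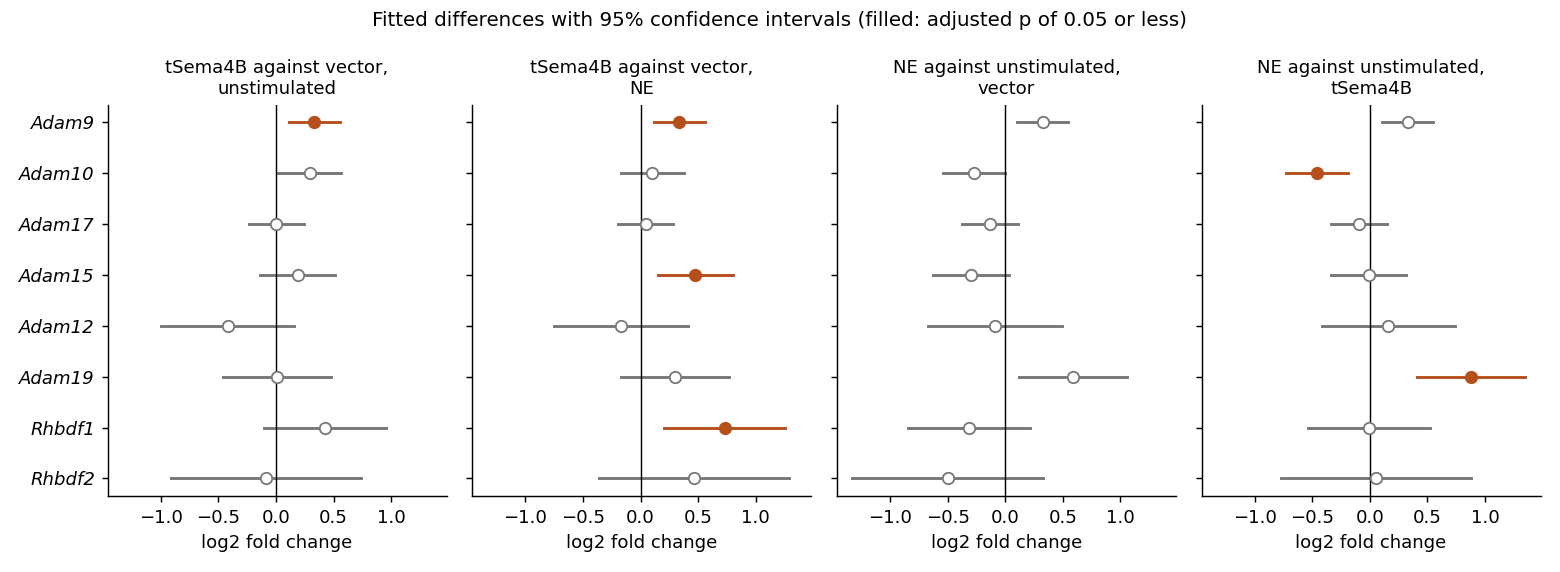
Fitted log2 fold changes of the 8 members (points) with 95% confidence intervals (lines) in the 4 comparisons. Filled points have an adjusted p of 0.05 or less over all tested genes: Adam9 between the unstimulated lines, Adam9, Adam15 and Rhbdf1 between the lines with NE, and Adam10 and Adam19 with NE in tSema4B cells.

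NE was compared with no stimulation in each line to ask how adrenergic signalling bore on these genes. In vector cells none of the 8 members passed, where 6.82% of tested genes were higher and 4.78% lower with NE. Adam9 and Adam19 had an unadjusted p under 0.05 by limma, and edgeR and DESeq2 each called 1 member, Adam9. Adam9 was at 846, 798 and 729 without NE and at 1013, 949 and 1006 with it, which did not overlap (log2 difference 0.32, adjusted p = 0.0537 by limma). Adam19, also called meltrin beta, was at 68.4, 81.6 and 56.6 without NE and at 95.4, 103 and 112 with it. These groups did not overlap either, and the log2 difference was 0.59 ± 0.23 (SE, adjusted p = 0.0997 by limma). Adam10 had a log2 difference of -0.27 (adjusted p = 0.212) and Adam15 one of -0.30 (adjusted p = 0.261). Adam15 went from 204, 206 and 195 to 165, 180.2 and 148, without overlap. Groups without overlap were thus found for 3 of 8 members, near the 33.3% of all tested genes. Adam12, Rhbdf1 and Rhbdf2 had differences of -0.09, -0.31 and -0.50. The median over the members was -0.20 beside -0.02 over all tested genes.

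In tSema4B cells, 1 member rose and 1 fell with NE, where 3.68% of tested genes were higher and 2.58% lower. Adam19 rose from 51.2, 82.0 and 76.7 to 136, 100.4 and 149, a 1.84-fold increase (log2 difference 0.88 ± 0.23 SE, adjusted p = 0.0209 by limma). Adam10, the sheddase of Notch, fell from 683, 662 and 576 to 518, 504 and 383 (log2 difference -0.46 ± 0.13 SE, adjusted p = 0.0372). Neither gene had overlapping groups, and 2 of 8 members without overlap is near the 20.7% of all tested genes. Adam19 passed in 3 of 6 fits that left out a library and failed without tSema4B replicate 1, tSema4B NE replicate 1 or tSema4B NE replicate 3. Adam10 passed in 3 of 6 and failed without tSema4B replicate 1, tSema4B replicate 2 or tSema4B NE replicate 3. Rescaling to the same total or over nuclear genes ended the Adam10 call and added Adam9, so that 2 members were higher and none lower. With only the 6 libraries compared neither Adam10 nor Adam19 passed, and with no filter on low values Adam10 did not. Adam9 had a log2 difference of 0.33 (adjusted p = 0.0752 by limma), which ran from 0.20 to 0.45 on leaving out a library. In those fits Adam9 passed without tSema4B replicate 2 or tSema4B NE replicate 1. The other members lay between -0.09 and 0.16. The median over the members was 0.02 beside 0.00 over all tested genes. Marker genes moved with NE as well, with 1 adipocyte marker higher and 2 lower in vector and 3 higher in tSema4B, and 1 preadipocyte marker higher and 2 lower in each line; their part in these results was not tested. Of the exon bases of Adam19, 718 lie over exons of Gm16033 or Gm16034 on the opposite strand.

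No member reached a log2 fold change of 1 together with the adjusted p in any of the 4 comparisons. The shares of tested genes that did were 3.82% and 5.76% between the lines without and with NE, and 2.63% and 2.07% with NE in vector and tSema4B cells. The largest difference among the members was the 0.88 of Adam19. The same libraries serve in several of these comparisons, so the comparisons are not independent of each other.

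The interaction term tested whether the NE response differed between the lines. It was called for none of the 8 members and for 0.025% of tested genes, and no member had an unadjusted p under 0.05 by limma or a call by edgeR or DESeq2. The response in tSema4B minus that in vector was -0.19 in log2 for Adam10 (95% interval -0.57 to 0.19) and 0.29 for Adam19 (-0.38 to 0.95). That Adam10 and Adam19 passed in tSema4B cells and not in vector cells therefore does not show that the lines responded differently.

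Each effect was also averaged over the other factor in the same model, a step added after the separate comparisons had been seen. Over both conditions, 3 of 8 members were higher in tSema4B and none was lower, where 13.9% of tested genes were higher and 15.2% lower. Rhbdf1 was 1.49-fold higher (log2 difference 0.58 ± 0.18 SE, adjusted p = 0.0186 by limma), Adam9 1.26-fold higher (0.33 ± 0.08 SE, adjusted p = 0.00190) and Adam15 1.26-fold higher (0.33 ± 0.11 SE, adjusted p = 0.0281). Adam9 passed in all 23 alternative fits run and Rhbdf1 in 22, failing without vector replicate 3. These fits were the other pseudocounts, filters, scalings and tools, thinned reads, the replicate block and the 12 that each left out a library. Adam15 passed in 18 and failed without vector replicate 3, tSema4B replicate 2, vector NE replicate 3 or tSema4B NE replicate 1, and when rescaled over nuclear genes. Adam17 differed by 0.02 (95% interval -0.15 to 0.19).

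Over both lines, 2 members rose with NE and 1 fell, where 8.83% of tested genes were higher and 7.53% lower. Adam19 rose 1.66-fold (log2 difference 0.73 ± 0.16 SE, adjusted p = 0.00250 by limma) and Adam9 rose 1.25-fold (0.33 ± 0.08 SE, adjusted p = 0.00435). Adam10 fell by 0.37 ± 0.09 (SE) on the log2 scale (adjusted p = 0.00807). Each of the 3 passed in all 23 alternative fits run. Adam17 had a difference of -0.11 (95% interval -0.28 to 0.06), and Rhbdf1 and Rhbdf2 had differences of -0.16 and -0.23 that did not pass (adjusted p = 0.602 and 0.650).

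No scaling between libraries can change the ratio of 2 genes within a library. The log2 ratio of Adam17 to Adam10 per kb was -0.66, -0.06 and -0.17 in vector and -0.74, -0.44 and -0.58 in tSema4B. With NE it was -0.28, -0.29 and 0.09 in vector and -0.55, -0.21 and 0.10 in tSema4B. The groups overlapped both between lines and with NE.

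Of 25 partners and regulators of sheddases, 21 were tested. In tSema4B against vector, 5 were higher and none lower without NE, and 7 were higher and 1 lower with NE, with median log2 differences of 0.14 and 0.26 beside 0.00 and -0.01 over all tested genes. With NE, 1 rose and 3 fell in vector and 1 rose and 4 fell in tSema4B, with medians of -0.11 and -0.08 beside -0.02 and 0.00. Of all tested genes, 5.64% were higher and 7.39% lower between the lines without NE, 9.79% and 11.2% with NE, and 6.82% and 4.78% were higher and lower with NE in vector and 3.68% and 2.58% in tSema4B. Frmd8, which holds the iRhom complex at the surface, was at 305, 327 and 288 in vector, 251, 294 and 348 in tSema4B, 296, 287 and 307 in vector with NE and 297, 332 and 365 in tSema4B with NE. Its groups overlapped in every comparison, and the lowest adjusted p = 0.445 by limma. Furin, which removes the inhibitory prodomain, and Tspan14, a tetraspanin partner of ADAM10, did not pass in any comparison either. Tspan15, another tetraspanin of ADAM10, was higher in tSema4B with NE (log2 difference 0.63, adjusted p = 0.0345), a call that held in 1 of 6 leave-one-out fits, the one without tSema4B NE replicate 3, and was lost when rescaled over nuclear genes.

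Pcsk6, a proprotein convertase like Furin, was at 20.6 ± 1.25 in vector with NE and 5.13 ± 2.58 in tSema4B with NE (SD, n = 3), from 29 to 37 and 2 to 7 reads per library. It was lower in tSema4B with NE (log2 difference -1.93, adjusted p = 0.0155 by limma) and failed without vector NE replicate 2, vector NE replicate 3 or tSema4B NE replicate 1 and with no filter on low values. With a pseudocount of 10 the difference was -1.03. Reck, a membrane-anchored inhibitor of metalloproteases, was higher in tSema4B with NE by 0.66 (adjusted p = 0.0359 by limma). It passed in 9 of 18 alternative fits and in none of the 6 that left out a library. The difference of Reck ran from 0.44 to 0.76 over the 18 fits. Plk2, a polo-like kinase, was higher in unstimulated tSema4B by 0.88 and fell with NE in tSema4B by 0.80. Mapk3, which encodes the kinase ERK1, fell with NE by 0.70 in vector and by 0.56 in tSema4B, where the call was lost without tSema4B replicate 1, tSema4B replicate 2, tSema4B NE replicate 1 or tSema4B NE replicate 3, and with only the 6 libraries compared.

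The TIMP inhibitors of metalloproteases moved in different directions with NE. Timp3, the TIMP that inhibits ADAM17, fell from 557, 519.6 and 394 to 257, 238 and 231 in vector, a log2 difference of -1.002 (adjusted p = 5.67e-05 by limma). In tSema4B it fell from 584, 614 and 548 to 289.5, 428 and 386, a difference of -0.68 (adjusted p = 0.00439 by limma). Exons of Syn3 on the opposite strand cover 1733 exon bases of Timp3, and the strand setting of the counting is not given. Timp2 fell by 0.59 in vector and by 0.58 in tSema4B on the log2 scale. Timp1, which inhibits ADAM10, rose by 1.11 in vector and by 0.57 in tSema4B (adjusted p = 6.73e-06 and 0.0120). Between the lines, Timp1 was higher in tSema4B by 1.05 without NE and by 0.50 with NE, and Timp2 by 0.53 in each. Timp3 was higher in tSema4B with NE by 0.58 (adjusted p = 0.00511 by limma), a call that held in all 18 alternative fits, and had a difference of 0.26 without NE (adjusted p = 0.258). Sfrp1, a secreted Wnt antagonist that also inhibits ADAM10, was higher in tSema4B by 1.45 and 1.05. Leaving out tSema4B replicate 3 ended the Timp1 call with NE in tSema4B, leaving out vector NE replicate 2 ended that between lines with NE, and leaving out vector replicate 2 ended the Timp2 call between unstimulated lines. The Sfrp1 call with NE was lost without vector NE replicate 2 or tSema4B NE replicate 1.

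**Figure D4:**
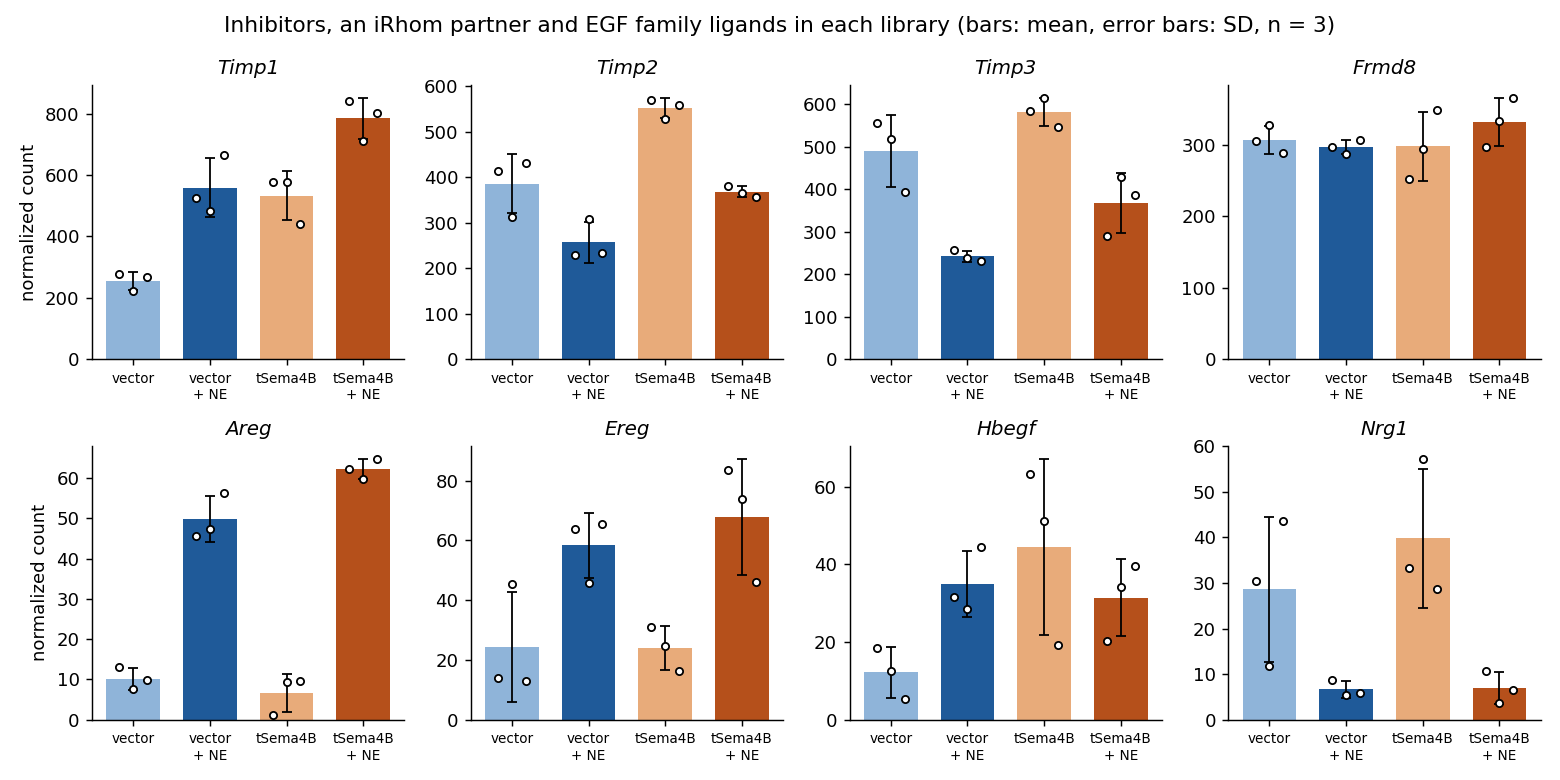
Normalized counts of 3 TIMP inhibitors, Frmd8 and 4 EGF family ligands in each of the 12 libraries (points), with the mean and SD of each group of 3. Timp3 is lower and Areg higher in every library with NE than in the unstimulated libraries of the same line.

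Among 11 ligands of the EGF receptor family, neuregulins included, which the sheddases release, 5 were tested. In vector cells 3 rose and 1 fell with NE, and in tSema4B cells 2 rose and 1 fell, where 6.82% and 4.78% of all tested genes were higher and lower with NE in vector and 3.68% and 2.58% in tSema4B. Areg, which encodes amphiregulin, was at 13.0, 7.57 and 9.80 in vector and at 45.7, 47.4 and 56.3 with NE (log2 difference 2.21, adjusted p = 0.00427 by limma). In tSema4B it went from 1.19, 9.28 and 9.58 to 62.2, 59.6 and 64.7 (3.35, adjusted p = 0.000122). The lowest of these libraries held 1 read, and without it, tSema4B replicate 1, the difference was 2.60. With a pseudocount of 10 it was 2.16 in tSema4B and 1.58 in vector. Every library with NE exceeded every unstimulated library of its line. Ereg, which encodes epiregulin, rose by 1.45 and 1.46, and Nrg1, a neuregulin, fell by 1.80 in vector and fell by 2.37 in tSema4B on the log2 scale. Hbegf was at 18.5, 12.6 and 5.45 in vector, 63.2, 51.0 and 19.2 in tSema4B, 31.6, 28.4 and 44.5 in vector with NE and 20.4, 34.1 and 39.6 in tSema4B with NE. It rose with NE in vector (1.56, adjusted p = 0.0291) and was higher in unstimulated tSema4B than in vector (1.77, adjusted p = 0.0117). These ligands rest on few reads. In leave-one-out fits, the NE call of Hbegf in vector held only without vector replicate 1, and its call between unstimulated lines was lost without vector replicate 3, tSema4B replicate 1 or tSema4B replicate 2. The NE call of Ereg held only without vector replicate 2 or vector NE replicate 2 in vector, and only without tSema4B replicate 1 or tSema4B NE replicate 3 in tSema4B. That of Nrg1 in vector held only without vector replicate 2 or vector NE replicate 1. With no filter on low values the NE calls of Hbegf and Nrg1 in vector and of Ereg in both lines were lost. With a pseudocount of 10 the difference of Nrg1 was -1.12 in vector and -1.52 in tSema4B. No ligand passed the interaction test, with an adjusted p = 0.278 for Hbegf. Egfr, the EGF receptor itself, was higher in unstimulated tSema4B (0.91, adjusted p = 0.00282 by limma) and did not pass in the other comparisons.

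Tnf, the substrate from which ADAM17 took its first name, had no read in any of the 12 libraries, which allows up to 3 reads, or a normalized count of 1.78 to 4.64 depending on the library. Of 42 shed substrates, 33 were tested. In tSema4B against vector 19 were higher and 2 lower without NE, and 16 were higher and 4 lower with NE, with median log2 differences of 0.45 and 0.51 beside 0.00 and -0.01 over all tested genes. Of all tested genes, 5.64% were higher and 7.39% lower without NE, and 9.79% and 11.2% with NE. The list includes Sema4b, the transduced gene, which was higher by 1.27 and 1.65 and fell with NE by 0.66 in vector. The origin of the Sema4b reads in vector cells was not tested. Dlk1, an inhibitor of adipogenesis, was higher in tSema4B by 0.37 and 0.55 and fell with NE by 0.55 in vector and by 0.37 in tSema4B. Ptprf, a receptor-type tyrosine phosphatase, was higher in tSema4B by 1.07 and 1.06, and Nrp1, a receptor of class 3 semaphorins, by 0.89 and 0.87. Mertk, a receptor tyrosine kinase that binds dying cells, was higher by 1.42 with NE, and by 0.94 to 1.66 over the alternative fits. Sort1, which encodes sortilin, had log2 differences of -1.57 without NE and -1.11 with it, and Aplp2, a relative of the amyloid precursor, of -0.43 and -0.28. With NE the Notch ligand Jag1 had one of -1.81 and the adhesion molecule Alcam one of -0.55. The Alcam call was lost without vector NE replicate 1, vector NE replicate 3 or tSema4B NE replicate 1, and the Aplp2 call with NE without vector NE replicate 1 or tSema4B NE replicate 3. The latter was also lost with no filter, at the same total, with quantile normalization and with thinned reads, and passed in 12 of 18 alternative fits. The Sort1 call with NE was lost without vector NE replicate 2, tSema4B NE replicate 2 or tSema4B NE replicate 3.

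With NE 7 substrates rose and 9 fell in vector, and 8 rose and 6 fell in tSema4B, with medians of -0.05 and -0.10 beside -0.02 and 0.00 over all tested genes. The shares of all tested genes were 6.82% and 4.78% in vector and 3.68% and 2.58% in tSema4B. Sdc1, a cell-surface heparan sulfate proteoglycan, rose by 1.29 and 1.38, and Il6st, the signalling receptor of IL-6 family cytokines, rose by 0.74 and 0.96. Between the lines both were higher in tSema4B, Sdc1 by 0.45 and 0.54 and Il6st by 0.62 and 0.85 without and with NE. Tnfsf11, which encodes RANKL, rose by 2.62 and 2.96 on 2 to 10 reads per unstimulated library. Its differences were 1.61 and 2.04 with a pseudocount of 10, and that in vector was 1.95 without vector replicate 2. In both lines Vasn, which encodes vasorin, fell with NE, by 0.85 in vector and by 0.49 in tSema4B, and Prnp, which encodes the prion protein, fell by 0.53 and by 0.60. Mertk fell by 1.69 and the chemokine Cxcl16 by 1.19 in vector, and Jag1 fell by 1.29 and Cdh2, which encodes N-cadherin, by 0.55 in tSema4B. The difference between the lines in these responses did not pass the interaction test for any substrate. The Cxcl16 call was lost without vector replicate 3 or vector NE replicate 3, and the Cdh2 call held, among the leave-one-out fits, only without tSema4B NE replicate 2. The Jag1 and Cdh2 calls were lost with only the 6 libraries compared, and that of Jag1 with thinned reads too. The Vasn call in tSema4B was lost without tSema4B replicate 1, tSema4B replicate 3 or tSema4B NE replicate 2. Il6ra, the IL-6 receptor, did not pass in any comparison.

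Of 10 further ADAM genes only Adam23, which lacks protease activity, was abundant enough to be tested. It fell with NE in tSema4B (log2 difference -0.51, adjusted p = 0.0488 by limma), a call that held in 2 of 6 leave-one-out fits, those without tSema4B replicate 2 or tSema4B NE replicate 2. Over all alternatives it passed in 7 of 18 and was also lost by edgeR, with a replicate block, no filter, either rescaling, thinned reads or only the 6 libraries compared. Of the ADAMs of leukocytes, Adam8 had at most 19 reads in a library and Adam28 had none in any. None of the 5 tested rhomboid relatives passed in any of the 4 comparisons. Markers of other cells that express sheddases were low. Of 8 macrophage markers, Ptprc and Adgre1 had no read in any library, and Csf1r, also listed as a shed substrate, had 0 to 2 reads per unstimulated library and 9 to 22 with NE. The summed normalized count of the 8 was 3.36 to 7.60 in vector, 0 to 5.48 in tSema4B, 13.4 to 23.6 in vector with NE and 9.65 to 24.6 in tSema4B with NE. Of 6 endothelial markers, 5 had at most 3 reads in every vector library of either condition, and 4 in every tSema4B library of either condition, where Tek reached 6 reads. Their summed normalized count was 4.34 to 10.9 in vector, 13.1 to 21.9 in tSema4B, 5.24 to 13.04 in vector with NE and 12.9 to 17.2 in tSema4B with NE, and the part of this difference between the lines in the results was not tested.

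The genes with the most similar profiles over the 12 libraries were found by the root mean square difference between log2 values centred on each gene's mean. For Adam9 these were Ctsb, Tulp3 and Cpt1a, at 0.11, 0.11 and 0.13, where the profile of Adam9 itself spread by 0.26. For Adam10 they were Msh3, Epc1 and Exoc3, at 0.12 each, against a spread of 0.26. For Adam19 they were Hif1a, Susd6 and Golt1b, at 0.18, 0.19 and 0.20 against 0.44. For Rhbdf1, Taok3 and Ppp1r18 were both at 0.11 against 0.35. For Adam15 they were Dynlt3, Ccnd3 and Tmx3. For Adam17, with the smallest spread of the members at 0.14, they were Blmh, Ptdss1 and Gfpt1, at 0.09 each. For Adam12 and Rhbdf2 the closest genes, Zfp329 and Zfp689, were at 0.20 from profiles that spread by 0.40 and 0.43. The points share the 12 libraries and their depths.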

How the data were processed

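RNA was made into SMART-Seq2 and Nextera XT libraries and sequenced as single-end reads. The authors aligned reads to mm10 with STAR 2.7.9a, counted them with htseq-count and deposited DESeq2-normalized counts, a signal in which counts were divided by a size factor per library. The annotation and the strand setting are not given in the sources used here. Every value was a whole multiple of 1 read within 0.01, in 100% of values of each library, so read counts were recovered. Genes that reached 10 normalized counts in 3 or more of the 12 libraries were tested on log2(normalized count + 1) with limma 3.58.1 (R 4.3.3), in 1 model of the 4 groups, two-sided, with trended variances and Benjamini-Hochberg adjustment over all 11998 genes. Rose, fell, higher and lower were used at an adjusted p of 0.05 or less. A fold change on this scale understates changes of low genes. On the recovered reads, edgeR 4.0.16 (quasi-likelihood) and DESeq2 1.42.0 were alternatives, as were other pseudocounts, filters, scalings, thinned reads, a replicate block and leaving out each library. On simulated data for unstimulated tSema4B against vector (11998 genes), limma passed 18.2% of changes of 0.5, 64.2% of 1 and 100% of 2 on the log2 scale, and 0.0509% of unchanged genes.

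Exon lengths and overlaps came from GENCODE M21 (GRCm38), and upstream windows from RefSeq. The members, lists and tests were chosen with earlier results of these data known. Named beside the members were, per list of partners, substrates, ligands, receptors and further ADAM genes and per comparison, up to 3 genes per direction past the test with the largest changes and no overlap, and in any case Furin, Frmd8, Timp3, Tspan14, Egfr, Tnf, Hbegf, Areg, Dlk1, Sema4b and Il6ra. For each member up to 3 genes of similar profile were named. Il6st, Adam8, Adam28, Ptprc, Adgre1, Tek and Ucp1 were named after their values were seen. 2 gene symbols occur more than once in the table. One profile match is not reported here.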

Additional observations from a re-analysis of the deposited data

How the results depend on the processing

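Of 759 values of single members in the separate comparisons, the interaction and the order per length, 651 kept direction and side of the threshold, 44 lost the call, 10 gained one, 51 changed sign and 3 were ranks of Adam17 that changed with the length used. Of 366 values of the averaged effects, 349 kept both, 6 lost the call, 3 gained one and 8 changed sign. Each sign change was in a value that had not passed, and its cause was not tested. The replicate numbers do not pair the libraries (correlations of deviations from -0.05 to 0.03 over 18 pairs, 0 over 0.1); with a replicate block the counts of members called were 1, 2, 0, 2 and 0 for the lines without and with NE, for NE in vector and in tSema4B, and for the interaction, Rhbdf1 being the call lost.

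The count of 1 between unstimulated lines became 0 with no filter on low values, when rescaled over nuclear genes, with thinned reads, with only the 6 libraries compared and at a log2 fold change of 1, and was 0 to 1 on leaving out a library. The count of 3 between lines with NE became 0 with no filter, over nuclear genes and at a fold change of 1, 2 (without Rhbdf1) with quantile normalization, thinned reads or only the 6 libraries, and 0 to 2 on leaving out a library. The count of 0 for NE in vector became 1 with a pseudocount of 10, a filter at 50, edgeR or DESeq2, and 2 with only the 6 libraries. The count of 2 for NE in tSema4B became 1 with no filter, 0 with only the 6 libraries and at a fold change of 1, and 0 to 2 on leaving out a library. At the same total and over nuclear genes it stayed 2 with Adam9 in place of Adam10, and all members called were higher.

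Signs changed as follows (log2). Between unstimulated lines, Adam17 was -0.083 over nuclear genes, -0.011 by edgeR, -0.0003 by DESeq2 and -0.033 with thinned reads, and Adam19 was -0.077 over nuclear genes and -0.0059 by edgeR. Between lines with NE, Adam17 was -0.0072 over nuclear genes; averaged over conditions it was -0.045. For NE in tSema4B, Adam15 was 0.014 at the same total, 0.0096 over nuclear genes and 0.024 with thinned reads, and Rhbdf1 was 0.016, 0.011 and, with quantile normalization, 0.0068. The interaction of Adam9 was -0.0031 by edgeR and -0.0059 by DESeq2.

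Leaving out each library gave these ranges. Between unstimulated lines, Adam17 ran from -0.095 to 0.11, Adam19 from -0.12 to 0.22 and Rhbdf2 from -0.31 to 0.13. Between lines with NE, Adam10 ran from -0.0070 to 0.24, Adam12 from -0.41 to 0.015 and Adam17 from -0.018 to 0.13. For NE in vector, Adam12 ran from -0.27 to 0.15. For NE in tSema4B, Adam12 ran from -0.22 to 0.43, Adam15 from -0.14 to 0.15, Adam17 from -0.16 to 0.0060, Rhbdf1 from -0.12 to 0.082 and Rhbdf2 from -0.13 to 0.40. For the interaction, Adam9 ran from -0.12 to 0.13, Adam12 from -0.13 to 0.52 and Adam17 from -0.061 to 0.14. Averaged, Adam17 between lines ran from -0.026 to 0.074 and Adam12 with NE from -0.15 to 0.17.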
